A study of Mus musculus with 4 samples.

Results

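The 7 members of the MS4A membrane protein family described here, Ms4a7, Ms4a6b, Ms4a6c, Ms4a6d, Ms4a4a, Ms4a4c and Ms4a14, were picked by symbol from the 32285 genes of the feature table, which lists 19 Ms4a genes in all. Their raw UMI counts (a UMI, or unique molecular identifier, is a tag added to each captured RNA molecule so that copies of it are counted once) were read per mouse, genotype and cell state, in microglia and in cells carrying a UMI of Mrc1, the mannose receptor of border-associated macrophages. Single brain cells sorted for CD45 and CD11b came from 2 PRMT1FL mice, which carry floxed Prmt1 alleles and are called wild type in the sample labels, and from 2 PRMT1Cx3cr1-KO mice, in which the tamoxifen-dependent recombinase of the Cx3cr1 CreERT driver removes these alleles. Each mouse gave 1 library. All 4 mice received tamoxifen and then 0.2% cuprizone (CPZ), a copper chelator that strips myelin, in the diet for 5 wk, so no group without CPZ is compared. In the methods the injections fall at 5 to 6 wk and the diet later, whereas the labels give that age for the diet. Cx3cr1 is active in border-associated macrophages as well as in microglia, so the driver is not restricted to microglia.

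MS4A proteins are small proteins that cross the membrane several times. The best known are MS4A1, the B cell antigen CD20, and MS4A2, a chain of the high-affinity IgE receptor, whereas most other members are expressed in myeloid cells and have less defined roles in receptor complexes and endosomes. In the mouse brain Ms4a7 is used as a marker of border-associated and marrow-derived macrophages, MS4A4A is known from alternatively activated human macrophages, and the human MS4A region is known for its association with the level of soluble TREM2, the shed form of a microglial lipid receptor.

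The members lie together on chromosome 19 of GRCm38 (mm10), between positions 11301249 and 11604849, a span of 303.6 kb that holds 17 annotated genes, 10 of them protein-coding. Ms4a14 (minus strand), Ms4a7 (minus), Ms4a4a (plus), Ms4a4c (plus), Ms4a6c (plus), Ms4a6b (plus) and Ms4a6d (minus) follow each other in this order of position. The 250 bases before the RefSeq start sites (build GRCm38.p6) of Ms4a7, Ms4a6b and Ms4a6c are shown because the genotype difference of these 3 members differed between microglia and Mrc1-positive cells with all mice and without each mouse in turn, as given further down. They and those of 3 other members that matched (all but Ms4a6d) were searched for motifs of macrophage transcription factors. Each is printed 5′ to 3′ on the strand of its gene, and the capitals mark a match to TTCNNTTTC or its reverse complement GAAANNGAA, the core of an interferon regulatory factor (IRF) element.
Ms4a7, chr19:11336147-11336396, minus strand: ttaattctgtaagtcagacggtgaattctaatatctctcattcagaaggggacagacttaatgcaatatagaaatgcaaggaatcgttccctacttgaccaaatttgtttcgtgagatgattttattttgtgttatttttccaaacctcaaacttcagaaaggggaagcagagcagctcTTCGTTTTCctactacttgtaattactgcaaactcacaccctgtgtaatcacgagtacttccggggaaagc
Ms4a6b, chr19:11518309-11518558, plus strand: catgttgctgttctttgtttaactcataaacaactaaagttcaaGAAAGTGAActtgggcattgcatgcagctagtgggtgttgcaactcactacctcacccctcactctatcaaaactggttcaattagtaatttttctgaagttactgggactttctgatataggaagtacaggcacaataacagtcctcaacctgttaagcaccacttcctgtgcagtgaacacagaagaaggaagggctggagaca
Ms4a6c, chr19:11469118-11469367, plus strand: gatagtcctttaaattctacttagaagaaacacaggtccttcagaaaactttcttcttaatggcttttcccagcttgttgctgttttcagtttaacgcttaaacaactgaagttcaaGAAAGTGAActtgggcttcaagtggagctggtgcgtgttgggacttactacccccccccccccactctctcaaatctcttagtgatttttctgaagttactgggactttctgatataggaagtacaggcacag

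The IRF letters lay 71 bases before the start in Ms4a7, 206 in Ms4a6b and 133 in Ms4a6c, and 7.13% of 32851 RefSeq promoters of this length hold them on either strand. They were not found in the same window of Ms4a4a, Ms4a4c or Ms4a14. Ms4a14 held TGANTCA, the letters of an AP-1 element, which 6.75% of promoters hold, 32 bases before its start. GAGGAAG, the letters of a PU.1 element (10.6% of promoters), and CACGTG, the core of a lysosomal gene element (6.02%), occurred in none of the 6 windows. Ms4a7 has a second RefSeq start site, whose window held both the AP-1 letters and an IRF match. The promoters of Ms4a6b and Ms4a6c were near copies of each other, with 152 of 182 aligned bases identical (83.5%) and a shared run of 48 bases, whereas the pair next in alignment score, Ms4a7 and Ms4a14, had 57.7% identity. The similarity reaches into the transcripts: of the 50-base stretches in the last 500 bases, which 3′ libraries sample, 4.31% of those of Ms4a6b and 7.76% of those of Ms4a6c also occur in other genes, as do 11.1% of those of Ms4a4c, shared with Ms4a4b and Ms4a4d. The values of these members are uncertain to that extent. Ms4a6c also overlaps BE692007 on the opposite strand (44 to 123 UMIs per mouse), and whether strand was used in counting is not given in the sources used here.

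The libraries held 76943248 to 99559644 UMIs, and 40869 cells had 200 to 6000 genes and at most 10% mitochondrial UMIs. Each pair of libraries shared 31 to 46 cell barcodes. The cells were clustered without any Ms4a gene and without 1227 genes that differed between genotypes. A name ending in -like stands only for marker genes. A1, B1, C2, D/E and F refer to the study's clusters. Monocyte, interferon, neutrophil and endothelial refer to separate lists of marker genes, so monocyte-like does not stand for the study's cluster F. Microglial clusters held 10814 and 7663 cells of the PRMT1FL mice against 10026 and 10489 of the PRMT1Cx3cr1-KO mice, with a summed level of 10048 to 11257 UMIs per 1000000 (CPM) for 8 microglial markers. B1-like cells were counted among them, although their median log2 ratio of these markers to all other cells, -0.72, was the lowest of the microglial clusters. Their median for 8 markers of cluster F was 0.48. In F-like cells these medians were -1.68 and 5.69. Whether B1-like cells are microglia or other macrophages was not tested. The summed level of 5 monocyte markers, none of them at 0, was 2.45 and 3.51 CPM in PRMT1FL microglia and 4.22 and 7.01 CPM in PRMT1Cx3cr1-KO microglia, highest in PRMT1Cx3cr1-KO mouse 2, and its part in the members' differences was not tested. Prmt1 itself was at 90.9 and 83.9 CPM in PRMT1FL microglia and at 70.3 and 70.6 CPM in PRMT1Cx3cr1-KO microglia (log2 fold change -0.39 with a standard error of 0.07 and an adjusted p of 0.0716 in edgeR's quasi-likelihood fit), below both controls in both mice. Counts per gene cannot tell an intact allele from a recombined one.

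Of the 12 other Ms4a genes of the feature table, Ms4a4b had 120 UMIs in all cells and the rest at most 20 each, with 14 for Ms4a1. Among the members, Ms4a6c had 36413 UMIs, Ms4a6d 28267, Ms4a6b 15440, Ms4a7 12168, Ms4a4c 3417, Ms4a14 337 and Ms4a4a 173. The last 2 therefore rest on few molecules throughout.

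In microglia, for 6 of the 7 members both PRMT1Cx3cr1-KO mice lay above both PRMT1FL mice, with ratios of the means of 4.72 for Ms4a14, 3.03 for Ms4a7 and Ms4a4a, 1.84 for Ms4a6b, 1.64 for Ms4a6c and 1.40 for Ms4a6d. Ms4a7 was at 13.5 and 13.3 CPM in PRMT1FL mice and at 23.9 and 57.5 CPM in PRMT1Cx3cr1-KO mice (means 13.4 ± 0.146 and 40.7 ± 23.7, SD, n = 2). The control mice were nearly equal, and the PRMT1Cx3cr1-KO mice differed from each other by 2.40-fold. Ms4a14, which neighbours Ms4a7, was at 0.18 and 0.28 CPM in PRMT1FL mice and at 0.64 and 1.52 CPM in PRMT1Cx3cr1-KO mice, again highest in PRMT1Cx3cr1-KO mouse 2.

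The Ms4a6 genes, near relatives within the family, showed smaller distances between genotypes. Ms4a6b was at 27.3 and 30.1 CPM in PRMT1FL mice and at 43.1 and 62.6 CPM in PRMT1Cx3cr1-KO mice. Ms4a6c was at 74.3 and 75.4 CPM in PRMT1FL mice and at 100.3 and 145 CPM in PRMT1Cx3cr1-KO mice. Ms4a6d was at 62.9 and 71.1 CPM in PRMT1FL mice and at 82.5 and 105 CPM in PRMT1Cx3cr1-KO mice. In all 3 genes PRMT1Cx3cr1-KO mouse 2 was the highest and the genotypes did not overlap. Of the Ms4a4 genes, Ms4a4a was at 0.18 and 0.055 CPM in PRMT1FL mice and at 0.21 and 0.51 CPM in PRMT1Cx3cr1-KO mice. The genotypes of Ms4a4a overlapped without marked doublets (0.21 and 0.015 against 0.21 and 0.59 CPM) and without B1-like cells (0.16 and 0.055 against 0.15 and 0.33 CPM), which leaves 5 members apart. Ms4a4c, at 8.90 and 9.22 CPM in PRMT1FL mice and 10.7 and 8.24 CPM in PRMT1Cx3cr1-KO mice, was the member whose genotypes overlapped with all cells included.

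**Figure D1:**
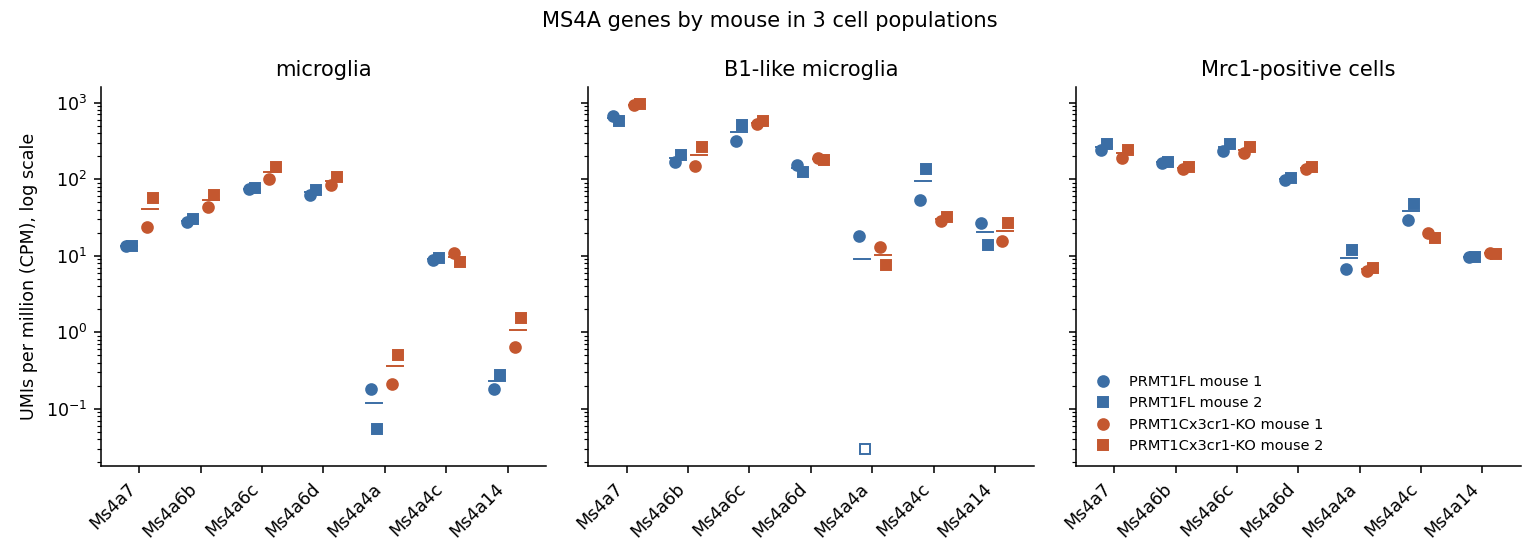
Level of each of the 7 members in UMIs per 1000000 (CPM, log axis) in microglia, in B1-like cells (also counted in microglia) and in Mrc1-positive cells; each point is 1 mouse, lines are genotype means, and the open symbol near the lower edge is a value of 0, which a log axis cannot show. In microglia the PRMT1Cx3cr1-KO points lie above the PRMT1FL points for 6 members, with Ms4a7 at 57.5 CPM in PRMT1Cx3cr1-KO mouse 2.

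None of these differences passed the test at an adjusted p of 0.05 over 13821 genes, of which 106 did (0.767%). In edgeR's quasi-likelihood fit, the log2 fold change was 1.52 for Ms4a7 (standard error 0.36, adjusted p = 0.0979), 2.18 for Ms4a14 (0.48, 0.0924), 0.80 for Ms4a6b (0.16, 0.0813), 0.63 for Ms4a6c (0.15, 0.0978) and 0.41 for Ms4a6d (0.11, 0.133). It was 1.47 for Ms4a4a (0.62, 0.261) and -0.01 for Ms4a4c (0.15, 0.987). The unadjusted p was under 0.05 for 5 members, against 2743 of all genes, and 38.9% of all genes had both PRMT1Cx3cr1-KO mice above both PRMT1FL mice, so that pattern alone is common here. The median log2 fold change of the members was 0.80 and that of all genes -0.0043. DESeq2 called 4 members on the same sums, namely Ms4a6b, Ms4a6c, Ms4a6d and Ms4a14, and 5.59% of all genes. The counts depend on single mice: 6 members passed without PRMT1Cx3cr1-KO mouse 1 (17.1% of all genes), 3 without PRMT1Cx3cr1-KO mouse 2 (Ms4a7, Ms4a6b and Ms4a6c, beside 5.46% of all genes) and 0 without PRMT1FL mouse 1 (0.0283%) or mouse 2 (0.0353%), while no sign changed except that of Ms4a4c. An exact two-sided permutation test of 2 mice against 2 has 0.333 as its smallest p.

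The members differed in which cells carried them. Ms4a7 was at 920 CPM in the B1-like cluster (512 cells, summed over mice), at 745 CPM in F-like cells (389 cells, with markers of border-associated macrophages and of the study's cluster F) and at 275 CPM in cluster 5.1. It was between 10.0 and 29.1 CPM in the other microglial clusters and had no UMI in 24 monocyte-like, 76 neutrophil-like or 76 endothelial-like cells. Cluster 5.1 (390 cells) is not named, since its median cell had 13263 UMIs and 44.4% of it was marked by comparison with simulated doublets. Ms4a14 and Ms4a4a were highest in B1-like, F-like and cluster 5.1 cells. Ms4a14 was at 24.6 CPM in B1-like and 27.3 CPM in F-like cells, against at most 0.86 CPM in other microglia, and Ms4a4a was at 8.56 and 29.4 CPM, against at most 0.28 CPM.

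Ms4a6c and Ms4a4c had a different peak. Ms4a6c reached 921 CPM in monocyte-like cells, 606 CPM in F-like and 547 CPM in B1-like cells, and within the other microglia its highest level was 220 CPM in the interferon-like cluster. Ms4a4c reached 330 CPM in monocyte-like cells and 46.7 CPM in interferon-like cells, against 5.92 to 8.41 CPM in the other microglial clusters outside B1-like cells. Ms4a6b was at 426 CPM in F-like, 364 CPM in monocyte-like, 241 CPM in B1-like and 148 CPM in cluster 5.1 cells, then at 89.1 CPM in interferon-like and 75.2 CPM in D/E-like cells. Ms4a6d was the most even member, between 67.2 and 124 CPM in microglial clusters outside B1-like cells and at 175 and 195 CPM in B1-like and F-like cells.

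**Figure D2:**
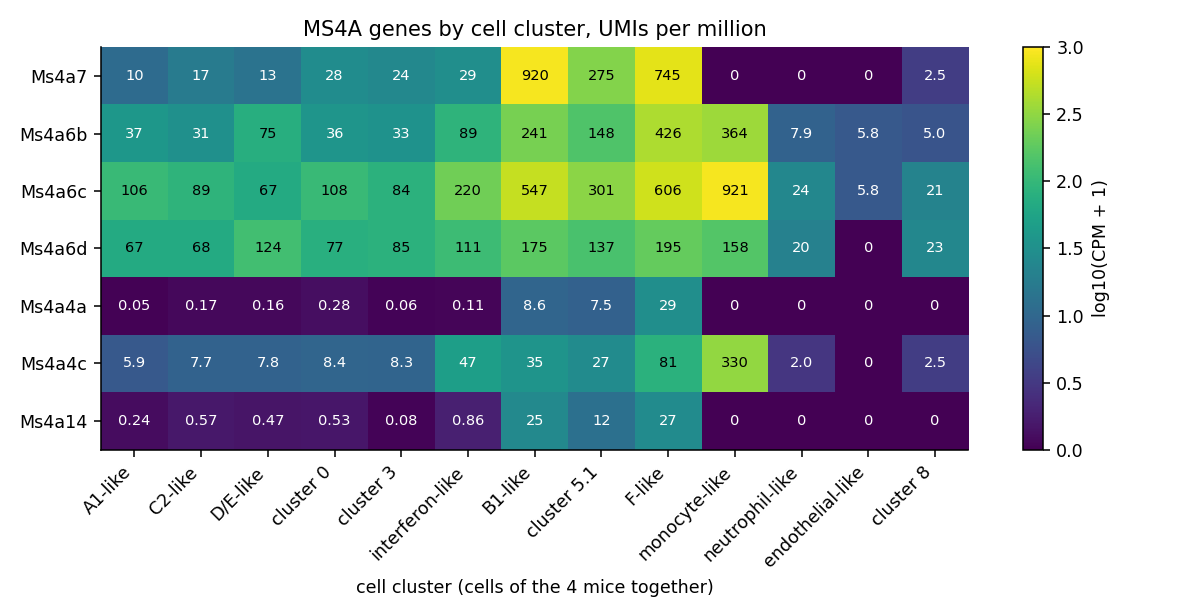
Level of each member (UMIs per 1000000, printed in each cell, colour on a log scale) in each cluster, with UMIs summed over the 4 mice. Ms4a7 stands at 920 CPM in B1-like and 745 CPM in F-like cells and at 0 in monocyte-like cells, where Ms4a6c stands at 921 CPM.

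Within B1-like cells, Ms4a7 was at 661 and 577 CPM in the 25 and 12 cells of PRMT1FL mice and at 930 and 943 CPM in the 72 and 403 cells of PRMT1Cx3cr1-KO mice. Ms4a6c was at 312 and 508 CPM against 519 and 565 CPM, and Ms4a6b was at 170 and 206 CPM against 149 and 262 CPM. Ms4a6d was at 152 and 124 CPM against 188 and 175 CPM, while Ms4a4c was at 53.6 and 137 CPM against 28.3 and 31.8 CPM. Both PRMT1Cx3cr1-KO mice were thus higher for Ms4a7, Ms4a6c and Ms4a6d, as in 25% of the 1765 genes with enough UMIs in these cells, and lower for Ms4a4c, as in 18.3% of them. The genotypes overlapped for Ms4a6b. Summed markers of cluster F stood at 669 and 2169 CPM in these cells of PRMT1FL mice and at 118 and 122 CPM in those of PRMT1Cx3cr1-KO mice. This sum includes H2-Eb1, an MHC class II gene, which made up most of it in PRMT1FL mice. Among its other markers Mrc1 was the highest, at 116 and 137 CPM against 56.5 and 40.8 CPM. The genotypes overlapped for Ccr2 and Lyve1. Whether the few control cells had the same make-up, and its part in the values, was not tested. B1-like cells carried a large share of microglial Ms4a7: 6.23% and 4.34% of its microglial UMIs in PRMT1FL mice, against 18.6% and 39.7% in PRMT1Cx3cr1-KO mice, from 0.23%, 0.16%, 0.72% and 3.84% of the microglia. The share was lower for the other abundant members, with at most 10.1% for Ms4a6b, 9.44% for Ms4a6c, 9.35% for Ms4a4c and 4.05% for Ms4a6d, each in PRMT1Cx3cr1-KO mouse 2.

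**Figure D3:**
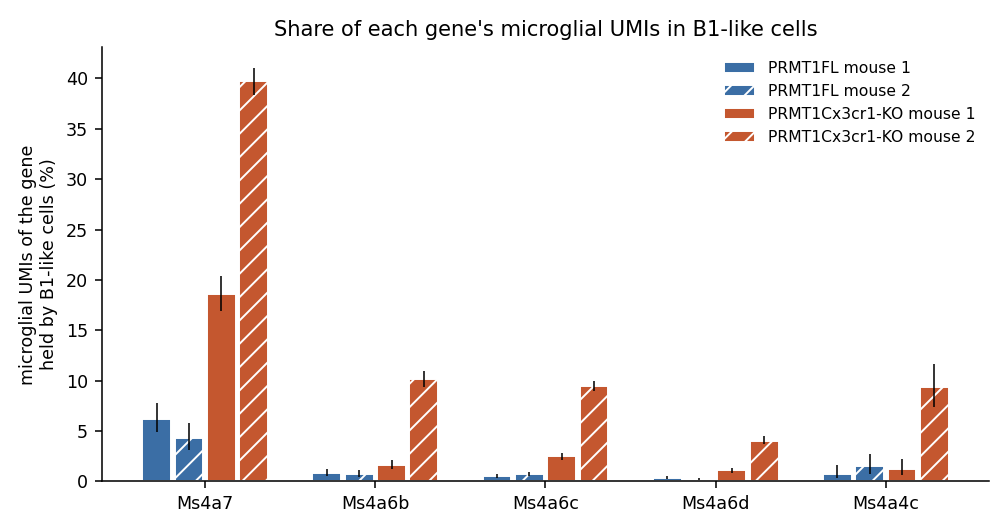
Share of a member's microglial UMIs that lay in B1-like cells, in percent, for 5 members in each of the 4 mice, with exact 95% intervals for counting error. Ms4a7 reaches 39.7% in PRMT1Cx3cr1-KO mouse 2, and in no mouse do B1-like cells carry more than 10.1% of the UMIs of Ms4a6b.

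With the B1-like cells left out, Ms4a7 was at 12.7 and 12.8 CPM in PRMT1FL microglia and at 19.6 and 35.5 CPM in PRMT1Cx3cr1-KO microglia. Its log2 change moved from 1.52 to 1.03 and did not pass (adjusted p = 0.095 from edgeR), and that of Ms4a6c moved from 0.63 to 0.57. Both PRMT1Cx3cr1-KO mice were still higher for Ms4a7. The share of all genes with that pattern was counted only with B1-like cells included, where it was 38.9%. Whether the genotype difference is of another size inside B1-like cells than in the other microglia was tested directly for the 4 members with enough UMIs. The difference of log2 fold changes, B1-like minus other microglia, was -0.49 for Ms4a7 (standard error 0.33), -0.62 for Ms4a6b (0.28, adjusted p = 0.627), -0.18 for Ms4a6c (0.25) and -0.16 for Ms4a6d (0.34). None of the 4 passed (0 at an unadjusted p under 0.05 as well, by edgeR, and 0 by limma's voom), against 1 of 1765 genes (0.0567%). In counts simulated for this comparison a 2-fold difference was recovered for 55% of changed genes and a 4-fold difference for 96.5%. The simulation gave all genes the same dispersion and each gene the same base rate in both classes, and changed only genes with many UMIs. These rates therefore do not apply to Ms4a7, whose level differed widely between the classes. A difference of about 2-fold or more could be missed.

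Within single states, 10 differences of members between genotypes passed the test, each of them a rise in PRMT1Cx3cr1-KO mice, and they involved Ms4a7, Ms4a6b, Ms4a6c and Ms4a6d. The interferon-like cluster, led by Rsad2 and other interferon-induced genes, held 4 of them, with 1.1% of its 9308 tested genes called. There Ms4a7 was at 17.5 and 16.3 CPM in PRMT1FL mice and at 31.0 and 60.4 CPM in the PRMT1Cx3cr1-KO mice, a log2 change of 1.32 with a standard error of 0.25 (adjusted p = 0.00732 from edgeR). Ms4a6b was at 61.0 and 72.5 CPM against 110 and 121 CPM, a change of 0.76 (0.14, 0.00523). Ms4a6c was at 183 and 166 CPM against 253 and 289 CPM, a change of 0.59 (0.12, 0.0123). Ms4a6d, at 85.0 and 91.3 CPM against 128 and 152 CPM, changed by 0.63 (0.13, 0.0164). In all 4 both PRMT1Cx3cr1-KO mice lay above both PRMT1FL mice, as in 21.8% of the tested genes of this cluster. Interferon-like cells numbered 274 and 186 (PRMT1FL) against 275 and 152 (PRMT1Cx3cr1-KO).

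In the D/E-like cluster, with markers of the study's clusters D and E, 2 members rose among 17.6% of genes called. Ms4a7 was at 6.39 and 8.72 CPM in PRMT1FL mice and at 9.93 and 23.1 CPM in PRMT1Cx3cr1-KO mice (log2 fold change 1.14, standard error 0.34, adjusted p = 0.0402 from edgeR). Ms4a6d was at 92.9 and 105 CPM against 128 and 157 CPM (0.51, 0.11, 0.00912). Calls were frequent among all genes of this cluster. In cluster 3 (3.04% called), Ms4a6b was at 23.0 and 24.0 CPM against 34.0 and 45.7 CPM (0.66, 0.12, 0.0138) and Ms4a6d at 68.8 and 70.4 CPM against 89.2 and 104 CPM (0.36, 0.09, 0.0403). In cluster 0 (0.532% called), Ms4a7 was at 16.6 and 16.4 CPM against 32.0 and 47.9 CPM (1.22, 0.15, 0.0373), and in the C2-like cluster (1.48% called) Ms4a6b was at 19.8 and 20.7 CPM against 35.1 and 48.7 CPM (0.96, 0.13, 0.0267). No member passed in A1-like cells (0.383% called), which carry cell cycle markers, in cluster 5.1 (0.901%) or in F-like cells (0.781%). In cluster 7 (0% called) only 1 member had enough UMIs to be tested, and it did not pass. In cluster 8 (0% called) no member could be tested. At an unadjusted p under 0.05 edgeR gave 4, 3 and 2 members in A1-like cells, cluster 5.1 and F-like cells and 0 in cluster 7. DESeq2 called 0 in each of these 4 clusters. Ms4a7 had too few UMIs to be tested in clusters 7 and 8, and Ms4a4a could be tested in F-like cells alone among the clusters.

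**Figure D4:**
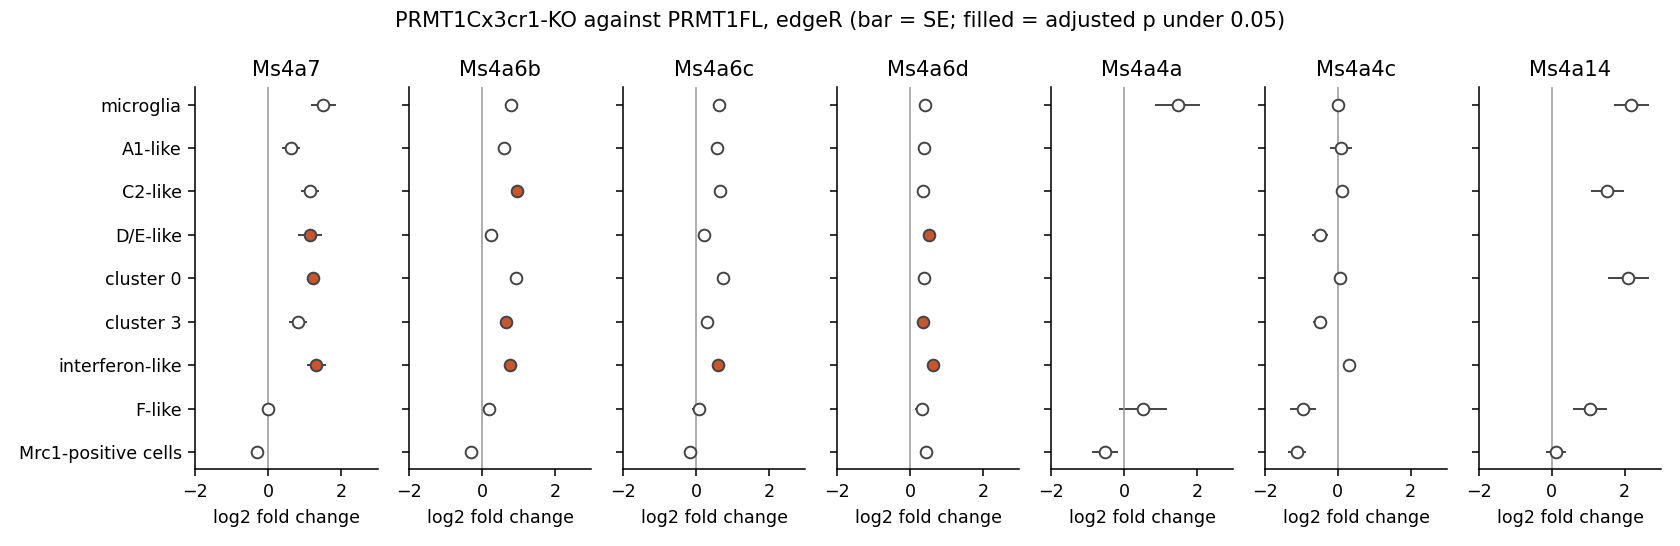
Log2 fold change of each member, PRMT1Cx3cr1-KO over PRMT1FL, with its standard error, in microglia, in 7 clusters and in Mrc1-positive cells, where the member had enough UMIs to be tested; filled points passed an adjusted p of 0.05 in edgeR's fit. The 10 filled points among the clusters all lie above 0, and 4 of them belong to interferon-like cells.

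How many of these calls stand depends on which mice are in the fit: without PRMT1FL mouse 1 there were 0 calls, without PRMT1FL mouse 2 there were 4, without PRMT1Cx3cr1-KO mouse 1 there were 27 and without PRMT1Cx3cr1-KO mouse 2 there were 10. Over all genes of the clusters together, 3.26% of tests were called with all mice and 0.925%, 0.914%, 9.55% and 4.04% in these 4 fits, so the number of calls moved among all genes too. In F-like cells the genotypes overlapped for Ms4a7, which was at 699 and 803 CPM in PRMT1FL mice and at 738 and 741 CPM in PRMT1Cx3cr1-KO mice (log2 fold change -0.014, standard error 0.15, adjusted p = 0.981 from edgeR). Ms4a4c did not follow the others. It was at 10.5 and 8.09 CPM in PRMT1FL and 7.73 and 5.79 CPM in PRMT1Cx3cr1-KO D/E-like cells, where both PRMT1Cx3cr1-KO mice were lower, as in 28.9% of genes. Both were also lower in cluster 3 (11.7% of genes) and in F-like cells (21.2%), at 81.9 and 126 CPM against 30.4 and 66.9 CPM. In interferon-like cells, with 39.3 and 43.4 CPM against 58.2 and 44.0 CPM, both PRMT1Cx3cr1-KO mice were higher, as in 21.8% of genes. None of these differences of Ms4a4c passed the test.

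Mrc1-positive cells, those with at least 1 UMI of Mrc1 in any cluster, numbered 225 and 166 in the control mice against 236 and 414 with the deletion. Their make-up differed between genotypes. F-like cells were 45.8% and 36.7% of them in PRMT1FL mice, against 25.4% and 14.3% in PRMT1Cx3cr1-KO mice, and microglia outside the B1-like cluster were 24.4% and 25.9% against 48.7% and 42.5%. B1-like cells were 2.67% and 2.41% against 4.24% and 14.5%, and cells marked by comparison with simulated doublets were 26.2% and 15.1% against 19.1% and 25.1%. Of all microglia, 0.564% and 0.613% carried an Mrc1 UMI in PRMT1FL mice, against 1.25% and 2.25% in PRMT1Cx3cr1-KO mice. With each cell thinned to 1000 UMIs these shares were 0.105% and 0.120% against 0.291% and 0.635%. In PRMT1FL mouse 1, neutrophil markers summed to 2089 CPM in the Mrc1-positive cells, against at most 2.36 CPM in the other mice.

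**Figure D5:**
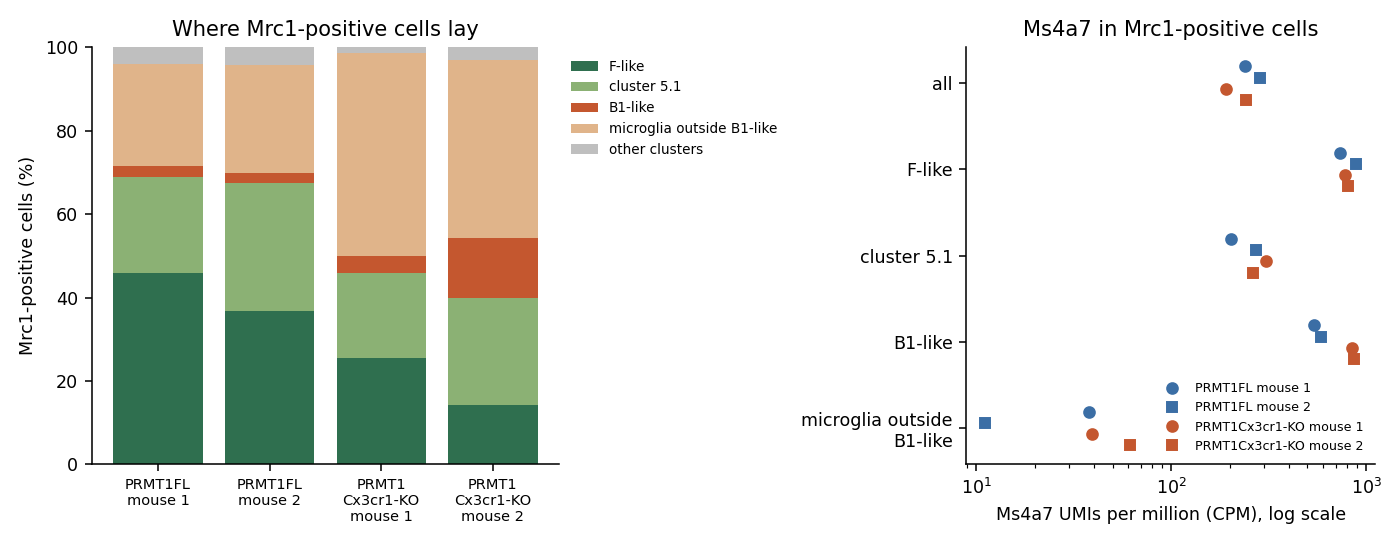
Left, the share of Mrc1-positive cells that lay in each class of clusters for the 4 mice, in percent; right, the level of Ms4a7 in Mrc1-positive cells by where these cells lay (UMIs per 1000000, log axis, 1 point per mouse). F-like cells are 45.8% and 36.7% in PRMT1FL mice, against 25.4% and 14.3% in PRMT1Cx3cr1-KO mice, and Ms4a7 in them stands between 732 and 889 CPM in all 4 mice.

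In the Mrc1-positive cells as a whole, Ms4a7 was at 238 and 286 CPM in PRMT1FL mice and at 190 and 242 CPM in PRMT1Cx3cr1-KO mice, with overlapping genotypes. Ms4a6d was at 96.4 and 103 CPM against 135 and 142 CPM, higher in both PRMT1Cx3cr1-KO mice, as was Ms4a14 at 9.53 and 9.57 CPM against 10.9 and 10.5 CPM and as were 26.5% of all genes. Ms4a4c was at 29.2 and 46.7 CPM against 19.6 and 16.9 CPM, and Ms4a6b at 164 and 166 CPM against 134 and 143 CPM, lower in both PRMT1Cx3cr1-KO mice, as were 17.8% of all genes. Ms4a6c was at 235 and 284 CPM against 218 and 259 CPM, and Ms4a4a at 6.73 and 11.8 CPM against 6.38 and 6.85 CPM, both with overlap. None of the 7 passed the test, against 123 of 9321 genes (1.32%), while 4 had an unadjusted p under 0.05 in edgeR's fit and DESeq2 called 0. The nearest was Ms4a4c, whose log2 value was -1.13 with a standard error of 0.24 (adjusted p = 0.0638), and it passed without PRMT1FL mouse 1 (-1.43, adjusted p = 0.000385), without marked doublets (-1.40, 0.0171) and without cluster 5.1 (-1.55, 0.00577), each from edgeR.

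The values were also read by where the Mrc1-positive cells lay, and the difference between these locations was not tested. In those of the F-like cluster, Ms4a7 was at 732 and 889 CPM in PRMT1FL mice and at 777 and 808 CPM in the PRMT1Cx3cr1-KO mice, a log2 change of -0.02 (adjusted p = 0.982 from edgeR). In those of microglial clusters it was at 49.95 and 43.5 CPM against 64.6 and 164 CPM, a log2 change of 1.25 (adjusted p = 0.366 from edgeR), and with B1-like cells left out too the value was 0.91 (0.495). Ms4a4c was lower in both PRMT1Cx3cr1-KO mice in F-like Mrc1-positive cells, at 74.4 and 123 CPM against 40.01 and 55.2 CPM, and in microglial ones, at 15.7 and 20.9 CPM against 13.9 and 12.7 CPM. With B1-like cells left out of the latter the genotypes overlapped, at 13.2 and 14.8 CPM against 13.6 and 8.63 CPM, and they also overlapped in the Mrc1-positive cells of cluster 5.1, at 14.3 and 38.7 CPM against 26.9 and 18.0 CPM.

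All 7 members were higher in Mrc1-positive cells than in the microglia without an Mrc1 UMI of the same mouse, in a fit with the mouse as a term. The log2 differences in edgeR's quasi-likelihood fit were 5.08 for Ms4a4a (standard error 0.52), 4.26 for Ms4a14 (0.43), 3.29 for Ms4a7 (0.26, adjusted p = 2.57e-07), 1.84 for Ms4a6b (0.16), 1.41 for Ms4a4c (0.19), 1.27 for Ms4a6c (0.12) and 0.47 for Ms4a6d (0.06, adjusted p = 7.13e-05). Of 13497 genes 16.6% passed in either direction and 7.24% were higher in Mrc1-positive cells. The calls held without each mouse in turn. Among Mrc1-positive cells of microglial clusters only, 4 members passed by edgeR. Ms4a7 differed by 1.52 (adjusted p = 5.12e-42), Ms4a14 by 2.65 (4.71e-06), Ms4a6b by 0.74 (1.33e-10) and Ms4a6c by 0.44 (5.62e-06). For Ms4a7 this p was far below the 2.57e-07 of the unrestricted comparison, although its difference was smaller. With 2 sums from each of 4 mice, so small a p cannot be taken as a measure of the spread between mice. The 16.6% and 7.24% belong to the unrestricted comparison, and the share of all genes passing in the restricted one is not given here. Cells marked as doublets stayed in it, and their part was not tested. In that restricted set Ms4a4a, Ms4a4c and Ms4a6d had values of 1.86, 0.59 and 0.14 that did not pass. With B1-like cells also left out of it, Ms4a7 was at 38.0 and 11.1 CPM in PRMT1FL mice and at 39.4 and 61.3 CPM in PRMT1Cx3cr1-KO mice. Microglia without an Mrc1 UMI, B1-like cells included, were at 13.2 and 13.1 CPM against 23.3 and 54.5 CPM. PRMT1FL mouse 2 was then not higher in the Mrc1-positive cells, and this narrower difference was not tested. Ms4a4b, no member, was higher by 2.90 (0.63, adjusted p = 0.00439).

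Whether the genotype difference itself differed between the populations was tested in 10150 genes, a test added after the values were seen. The log2 fold change in Mrc1-positive cells minus that in microglia was -1.79 for Ms4a7 (standard error 0.19, adjusted p = 4.61e-05 from edgeR), -1.13 for Ms4a6b (0.13, 8.21e-05), -0.82 for Ms4a6c (0.10, 0.000196) and -1.07 for Ms4a4c (0.24, 0.033). For Ms4a14 and Ms4a4a it was -2.07 and -2.10 with adjusted p of 0.177 and 0.391, and for Ms4a6d it was 0.00027. Of all genes 1.77% passed in either direction and 1.15% with a negative difference. Ms4a7, Ms4a6b and Ms4a6c passed without each mouse in turn, and Ms4a4c passed only without PRMT1FL mouse 1 (adjusted p = 0.000586) among these 4 fits. The F-like share of Mrc1-positive cells moved with genotype as given above, and its part in these differences was not tested.

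By the shares of cells with a UMI, taken from the same counts, the genotypes lay apart for Ms4a7, Ms4a6c and Ms4a6b. How many of all genes do so was counted for CPM only, where 38.9% had both PRMT1Cx3cr1-KO mice higher in microglia. Ms4a7 was found in 6.43% and 6.60% of PRMT1FL microglia and in 8.38% and 15.6% of PRMT1Cx3cr1-KO microglia, and after thinning in 1.50% and 1.18% against 2.26% and 5.07%. The exact 95% intervals, which cover counting error only, reached from 5.97 to 6.91% in PRMT1FL mouse 1 and from 14.9 to 16.3% in PRMT1Cx3cr1-KO mouse 2 before thinning. As background from free RNA, Ms4a7 was found in 0 of 76 neutrophil-like cells (median 4578 UMIs), which allows a share of up to 3.95%, but 26 and 49 of these cells came from the PRMT1FL mice and 1 from a PRMT1Cx3cr1-KO mouse. In cluster 8 (median 2967.5 UMIs) Ms4a7 was found in 0.503% of 199 and 0% of 135 cells of the PRMT1FL mice. The exact intervals reached 2.77% and 2.70%, below their microglial shares before thinning. After thinning it was found in 0% of 181 and 0% of 125 of these cells, with intervals up to 2.02% and 2.91%. These limits lie above the thinned microglial shares, so at equal depth the background is not bounded below them. In the cluster 8 cells of PRMT1Cx3cr1-KO mice Ms4a7 was found in 2.17% of 46 and 5.00% of 20 cells before thinning. The intervals reached 11.5% and 24.9%, so the background of these mice is not bounded below the microglial shares. Ms4a6c was found in 34.0% and 37.6% against 39.7% and 49.7% of microglia, and in 9.21% of neutrophil-like cells. Ms4a6d was found in 35.2% and 41.8% against 40.5% and 48.3%, with overlapping genotypes, and in 7.89% of neutrophil-like cells. Ms4a6b was found in 17.4% and 21.0% against 24.4% and 33.0%, and in 5.26% of neutrophil-like cells. Ms4a4c stayed between 6.13% and 7.09% in all 4 mice, and Ms4a14 and Ms4a4a were found in at most 1.14% and 0.42% of microglia. In B1-like cells 470 of 512 carried Ms4a7 (91.8%), and in F-like cells 277 of 389 (71.2%).

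Several members were often found in the same cell. Cells with UMIs of at least 4 members were 1.86% and 2.90% of PRMT1FL microglia and 4.07% and 8.19% of PRMT1Cx3cr1-KO microglia, and cells with at least 2 members after thinning were 1.56% and 1.98% against 2.79% and 5.53%. A B1-like cell carried 3.23 of the 7 members on average and an F-like cell 2.97, against 1.20 in the other microglia. Among microglia outside the B1-like cluster, 16.4% of the cells with Ms4a7 and 7.66% of those without it had a UMI of Ms4a6c after thinning, and for Ms4a6b the shares were 5.48% and 4.20%. In B1-like cells, of which 42 lacked Ms4a7, the shares were 42.1% and 40.0% for Ms4a6c, while the order was the other way for Ms4a6b (20.6% and 35.0%) and Ms4a4c (2.36% and 7.5%). These shares pool cells of the 4 mice and are a description.

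Over 47 sums of a cluster in a mouse, the pattern of Ms4a7 on the scale log2(CPM + 1) was closest to that of Ms4a6c (Pearson's r = 0.927), then Ms4a6b (0.889), the platelet factor Pf4 (0.883), Tmem176a (0.845) and Gpx3 (0.827). Ms4a6b was closest to Ms4a6c (0.918) and, after Ms4a7, to Ehd4 (0.871), the cathepsin Ctsc (0.868) and Tmem176b (0.864). Ms4a6c was followed outside the family by the scavenger receptor Msr1 (0.888), Pf4 (0.884) and the interferon-induced Bst2 (0.874). Ms4a4c was closest to the interferon-inducible Ifi206 (0.857) and Ifi213 (0.836), then to Ms4a6c (0.829), Scimp (0.820) and Rnf150 (0.809). Ms4a6d had no member among its first 5, which were Tnfrsf13b (0.912), Lpxn (0.905), Gm21860 (0.874), Efhd2 (0.849) and Ntpcr (0.827). The comparison took in 10880 genes, the sums share the 4 libraries, and their depth differs with the number of cells, so the values are descriptions.

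Genes connected with the members gave few calls in microglia. Of 9 genes of the soluble TREM2 axis, among them the proteases Adam10 and Adam17 and the adaptor Tyrobp, none passed in microglia or in Mrc1-positive cells by edgeR, with 2 and 1 at an unadjusted p under 0.05 and 1 and 0 called by DESeq2. Their median log2 fold change was -0.064 in microglia and 0.038 in Mrc1-positive cells. Trem2 was at 2263 and 2714 CPM in PRMT1FL microglia and at 2144 and 1701 CPM in PRMT1Cx3cr1-KO microglia, a log2 change of -0.44 (SE 0.15, adjusted p = 0.182 from edgeR). Of 15 B1 markers without Ms4a genes 1 rose in microglia (Sash1, 0.73), against 0.767% of all genes called. By edgeR 11 had an unadjusted p under 0.05, as had 2743 of all 13821 genes. Of the 11, 9 had a positive value, such as Cd38 (4.83), Clec12a (3.56), Wfdc17 (1.34) and Dab2 (0.94). Gpnmb (-0.24) and Cybb (-0.21) had a negative one. Of 10 tested markers of border-associated macrophages 1 rose (the chemokine Ccl24, 1.19), and 5 had an unadjusted p under 0.05, all with a positive value, the other 4 being Mrc1 (1.47), F13a1 (0.93), Pf4 (1.84) and Clec4n (2.07). Most of these markers lay in the same direction as the members in microglia, and their part in the members' differences was not tested. Of 10 homeostatic markers 2 fell, Siglech by 0.66 and Cx3cr1, the gene of the driver, by 0.90 on the log2 scale. By the genotype names only the PRMT1Cx3cr1-KO mice carry the driver, and its own part in the genotype differences was not tested. Of 4 tested monocyte markers none passed by edgeR (2 at an unadjusted p under 0.05, 2 by DESeq2). These lists, like the members, are not independent of earlier results of these data. In Mrc1-positive cells 6 of 11 markers of border-associated macrophages fell, leaving aside Mrc1, which selects the cells. Their median log2 fold change was -1.24 against -8.7e-05 for all genes, of which 1.32% were called, and 3 of 15 B1 markers fell (Cybb, Dab2 and Pf4). In the same cells 1 of 3 tested monocyte markers rose (Fn1, 0.81), and of 10 homeostatic markers 2 rose (P2ry12 and Gpr34) and 2 fell (Siglech and Cx3cr1).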

How the data were processed

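From CD45+ CD11b+ brain cells the authors made 10x Genomics 3′ libraries, used Cell Ranger 3.1.0 with the mm10 genome, and deposited raw UMI counts per gene and called cell barcode, with 1 library per mouse and no pooling or normalization. These counts were used as deposited. The submitters' processing notes also name Seurat 3.2.0 and Scanpy 1.5.2. The members and gene lists were chosen with earlier results of these data known.

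Cells within the study's limits (200 to 6000 genes, a mitochondrial share of UMIs of at most 10%) were clustered over all mice (2000 variable genes, 20 principal components, Leiden resolution 0.3, Python 3.11.15). The 19 Ms4a genes and 1227 genes that differed between genotypes were left out of the clustering, so that neither defines a cluster, and 1 cluster was divided further. Cells that resembled simulated doublets (6.54 to 9.15% per mouse) stayed in, as no doublet step is named in the methods. UMIs were summed per mouse and population and tested with edgeR 4.0.16 (TMM scaling, filterByExpr, quasi-likelihood test, Benjamini-Hochberg adjustment over all genes tested), so that the replicate is the mouse, never the cell. A comparison of 2 populations had the mouse as a term. DESeq2 1.42.0 and limma 3.58.1 (R 4.3.3) served as alternatives, beside other cell filters, no low-count filter, the replicate number as a block and leaving out each mouse. In simulated counts edgeR recovered 98.5% of genes changed 2-fold in microglia and 94% in Mrc1-positive cells. The simulation gave all genes the same dispersion and changed only genes with many UMIs. These rates therefore do not apply to rare members or to members whose mice differed as much as those of Ms4a7. CPM is UMIs per 1000000 UMIs of the same sum. Depth limits rare members: with 3 counts as the floor, a microglial level below 0.034 CPM in PRMT1FL mouse 1 could not be told from 0. For shares of cells, 1637 cells under 1000 UMIs were left out of the thinned values.

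All 7 members are named with the value in every mouse. Also named were other Ms4a genes that passed the filter on low counts, the 5 genes with the most similar pattern for each member with at least 500 UMIs, and genes of 5 lists (soluble TREM2 axis, B1, border-associated macrophage, monocyte and homeostatic markers). Gene positions and strands come from the GENCODE annotation of GRCm38, and promoters from RefSeq.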

Additional observations from a re-analysis of the deposited data

Results flagged for a closer look

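The genotype difference in Mrc1-positive cells was lower than that in microglia, by edgeR's test of the difference itself, for Ms4a7 (-1.79 on the log2 scale, adjusted p = 4.61e-05), Ms4a6b (-1.13, 8.21e-05), Ms4a6c (-0.82, 0.000196) and Ms4a4c (-1.07, 0.033). This test was added after the values were seen, and the result for Ms4a4c depended on single mice. In microglia both PRMT1Cx3cr1-KO mice lay above both PRMT1FL mice for the first 3, as for 38.9% of genes. In Mrc1-positive cells both lay below for Ms4a6b and Ms4a4c, as for 17.8% of genes. F-like cells were 45.8% and 36.7% of Mrc1-positive cells in PRMT1FL mice, against 25.4% and 14.3% in PRMT1Cx3cr1-KO mice. The part of this shift was not tested.

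Ms4a4c lay in opposite directions in different states, among the clusters in which it had enough UMIs to be tested. Both PRMT1Cx3cr1-KO mice lay above both PRMT1FL mice in 1 cluster (interferon-like, as in 21.8% of its genes) and below them in 3 clusters. These 3 were D/E-like (28.9% of genes), cluster 3 (11.7%) and F-like (21.2%). Outside these tests both PRMT1Cx3cr1-KO mice also lay below in B1-like cells (53.6 and 137 CPM against 28.3 and 31.8 CPM). The same held for 18.3% of the 1765 genes with enough UMIs there. In cluster 7 Ms4a4c had only 0 and 1 UMIs in PRMT1FL mice against 2 and 1 in PRMT1Cx3cr1-KO mice, too few to give a direction. In interferon-like cells PRMT1FL mouse 2 and PRMT1Cx3cr1-KO mouse 2 were nearly equal, at 43.4 and 44.0 CPM. None of the tested differences of Ms4a4c passed, and the difference between these states was not tested.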

How the results depend on the processing

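Of 744 refits of a member's log2 fold change, 608 kept direction and side of the threshold, 74 passed it anew, 31 no longer passed and 31 changed direction. In microglia 4 members passed with DESeq2, 6 with no low-count filter, 3 with a replicate block and 0 to 6 without 1 mouse. In Mrc1-positive cells 1 passed with no low-count filter, without marked doublets or without cluster 5.1 (chosen after seeing the data), and 0 to 1 without 1 mouse. Against microglia, 4 passed in microglial clusters only and 7 without each mouse. Within states there were 21 calls with no low-count filter, 18 with a replicate block and 0 to 27 without 1 mouse. The genotype effect gave 3 to 4 members in Mrc1-positive against microglia and 0 in B1-like cells without 1 mouse, both chosen after seeing the data. Mice with the same number did not deviate together (r = -0.027 over 12590 genes, across genes). This correlation alone cannot tell whether they shared more than a number. Over all genes, 4 to 2426 were called in microglia, 0 to 217 in Mrc1-positive cells and 661 to 2360 between the 2 populations, and the cause was not tested. In the interaction for B1-like cells limma's voom with the mouse as a random block called 0. The shares of all genes called with no low-count filter or with a replicate block are not given here. The counts of members under these settings therefore have no background beside them.

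The ratio of mean shares of cells with a UMI (PRMT1Cx3cr1-KO to PRMT1FL) moved on thinning to 1000 UMIs from 1.84 to 2.73 for Ms4a7 and from 1.25 to 1.52 for Ms4a6c in microglia. In Mrc1-positive cells it moved from 1.03 to 0.783 for Ms4a6b, 1.21 to 1.50 for Ms4a6d, 0.838 to 1.47 for Ms4a4a and 0.667 to 0.323 for Ms4a4c, which was at 0.504 without marked doublets.

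Changed directions, none past the threshold: in Mrc1-positive cells, microglial clusters only gave 1.25 for Ms4a7, 0.47 for Ms4a6b and 0.33 for Ms4a6c, and microglia outside B1-like cells (chosen after seeing the data) gave 0.91, 0.42 and 0.28. F-like cells only gave 0.19 for Ms4a6b, 0.094 for Ms4a6c and 0.99 for Ms4a4a, and at least 2 Mrc1 UMIs gave 0.043 for Ms4a6c. In F-like cells, Ms4a7 was at 0.0013 without marked doublets and 0.062 with clustering on all variable genes, and Ms4a4c in microglia was at 0.034 without marked doublets. Without 1 mouse, Ms4a4c ran from -0.23 to 0.20 in microglia, -0.13 to 0.25 in cluster 0, -0.12 to 0.31 in C2-like, -0.091 to 0.29 in A1-like and -1.25 to 0.30 in cluster 5.1. Ms4a6c ran from -0.022 to 0.43 in D/E-like and -0.16 to 0.35 in F-like cells, Ms4a6b from -0.15 to 0.056 in cluster 5.1, and Ms4a7 and Ms4a4a from -0.11 to 0.081 and -0.39 to 2.85 in F-like cells. The genotype effect in B1-like cells against other microglia ran from -0.85 to 0.021 for Ms4a7, -0.52 to 0.16 for Ms4a6c and -0.33 to 0.17 for Ms4a6d, and that in Mrc1-positive cells against microglia from -0.10 to 0.17 for Ms4a6d.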

Other observations

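The 80 Mrc1-positive cells of the B1-like cluster carried Ms4a7 at 538 and 589 CPM in PRMT1FL mice (6 and 4 cells) and at 850 and 864 CPM in PRMT1Cx3cr1-KO mice (10 and 60 cells). Ms4a4c was at 120 and 124 CPM against 23.6 and 40.4 CPM in the same cells, from only 2 and 4 UMIs against 1 and 13 UMIs. The genotypes did not overlap for either gene. In the whole B1-like cluster, 25% of 1765 genes had both PRMT1Cx3cr1-KO mice above both PRMT1FL mice, and 18.3% had both below. With so few PRMT1FL cells no test was run.

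BE692007, the transcript that overlaps Ms4a6c on the opposite strand, was counted over all cells at 44 and 48 UMIs in the PRMT1FL libraries, against 54 and 123 UMIs in the PRMT1Cx3cr1-KO libraries.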
